A study of Mus musculus with 14 samples.

Results

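Described here are 10 genes of extracellular matrix turnover, taken from the 33459 gene IDs of a mouse RNA-seq count table as those whose Ensembl ID maps to a listed symbol. They are 4 tissue inhibitors of metalloproteinases (Timp1, Timp2, Timp3 and Timp4), 4 matrix metalloproteinases (Mmp2, Mmp3, Mmp14 and Mmp19) and 2 ADAMTS proteases (Adamts1 and Adamts5). Each symbol matched 1 ID, and all 10 genes had enough reads to be tested in every comparison. The study set mice lacking Fhl2, which encodes a LIM-domain adaptor protein, against wild-type (WT) mice in gonadal white adipose tissue (gWAT) and in heart. The libraries were 3 FHL2-/- (KO) and 3 WT gWAT samples, numbered 1, 3 and 4, and 4 KO and 4 WT heart samples, numbered 1 to 4. All mice, KO and WT alike, were of the C57BL/6 strain, 21 weeks old and on a high-fat diet for 8 weeks, so every value below is from high-fat-fed animals. The labels give neither the part of Fhl2 that was removed nor whether libraries of a group are from different animals. The p-values therefore measure the spread between samples, which may be technical.

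Metalloproteinases are zinc-dependent enzymes that cut collagens, proteoglycans and other matrix proteins outside the cell, and they are made as inactive precursors. TIMP proteins bind the active site of these enzymes and block it, so the balance of enzyme and inhibitor sets how fast matrix is turned over. In adipose tissue, matrix turnover accompanies the expansion of fat cells during obesity, and in heart it takes part in remodelling after injury. The ADAMTS enzymes carry thrombospondin repeats, and Adamts1 and Adamts5 cut proteoglycans such as aggrecan and versican.

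Libraries held 15405131 to 15872400 counts in gWAT KO, 15105019 to 16040188 in gWAT WT, 10835092 to 12614560 in heart KO and 12173977 to 13272412 in heart WT. A level is given in CPM, the reads of a gene relative to all reads of its library on a TMM scale shared by all 14 libraries, and a comparison between genes is given in CPM per kb of annotated exon. Differences are log2 fold changes ± standard error (SE) from the edgeR quasi-likelihood F test, and a gene is said to rise or fall where its p, adjusted over all genes tested, was under 0.05. Fhl2 averaged 0.316 ± 0.0938 CPM in KO gWAT and 4.39 ± 0.706 CPM in WT gWAT (SD, n = 3 each), and 39.8 ± 4.54 CPM in KO hearts and 1399 ± 206 CPM in WT hearts (SD, n = 4 each). It fell in both tissues by the edgeR test (adjusted p = 0.0101 in gWAT and 1.99e-08 in heart). A list of 13 white adipocyte markers summed to 20198 to 33816 CPM in gWAT libraries and to 1632 to 2251 CPM in heart libraries. A list of 8 general cardiomyocyte markers summed to 17.4 to 24.1 CPM in gWAT libraries and to 41280 to 49062 CPM in heart libraries.

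In gWAT of KO mice the inhibitor Timp4 rose while the inhibitor Timp1 and the protease Mmp3 fell. These were 3 of the 10 genes, where 5.49% of the 15200 genes tested passed the same threshold in either direction, 2.01% higher and 3.48% lower. The 10 genes were chosen with earlier results of these data known, so this count and those that follow are descriptions and no test of the set. Another 4 genes (Timp3, Mmp2, Mmp14 and Mmp19) had an unadjusted p under 0.05 in the edgeR test without passing the adjustment, which makes 7 of 10 at that level, against 23.1% of all genes tested. For 5 genes (Timp1, Timp3, Timp4, Mmp3 and Mmp19) all KO libraries lay above or all lay below every WT library. This held for 27.6% of all genes tested.

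**Figure D1:**
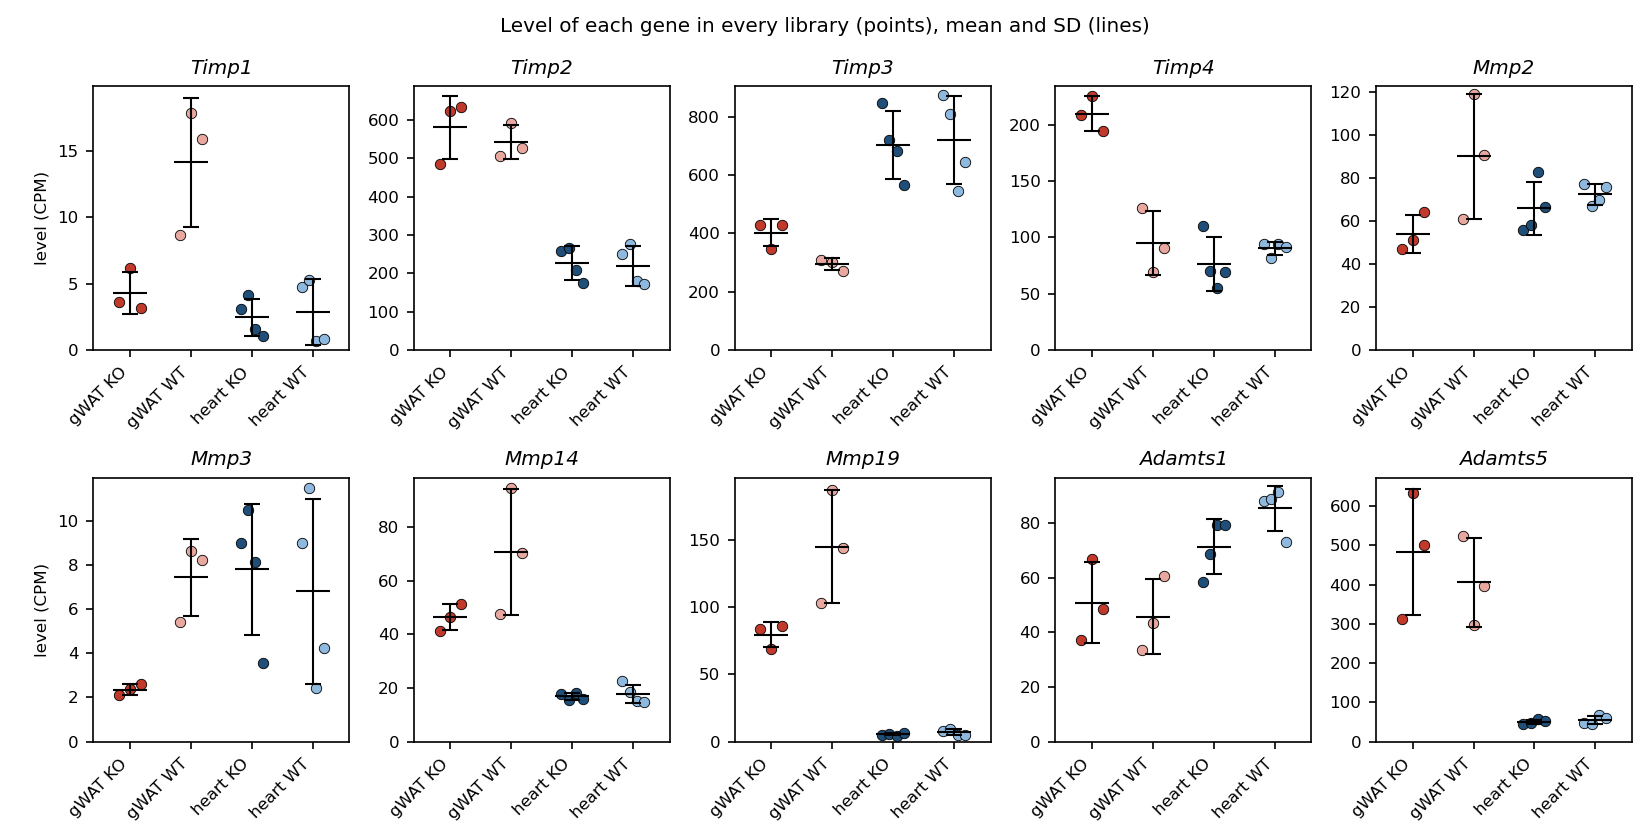
Level of each of the 10 genes in CPM (y axis, linear, from 0) in every library, with the 4 groups on the x axis, points for libraries and lines for the mean and SD (n = 3 per gWAT group and 4 per heart group). In gWAT, KO points of Timp1 and Mmp3 lie below and KO points of Timp4 lie above all WT points, while KO and WT heart points overlap for every gene.

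Timp1, on chromosome X at 20870166 to 20874735 (plus strand, GRCm38), encodes a secreted inhibitor that cells make in response to inflammatory and growth signals. Its level was 3.6, 6.14 and 3.18 CPM in KO gWAT libraries 1, 3 and 4, against 8.66, 17.8 and 15.9 CPM in WT gWAT libraries 1, 3 and 4. All KO libraries lay below all WT libraries, and WT library 1 was the nearest to them. The difference was −1.72 ± 0.34 on the log2 scale (edgeR adjusted p = 0.0313), from 246 reads in KO and 834 reads in WT libraries.

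Timp4, on chromosome 6 at 115241892 to 115252205 (minus strand), encodes the inhibitor whose expression is most restricted to a few tissues, heart and fat among them. Its level was 209, 225 and 195 CPM in KO gWAT libraries 1, 3 and 4, against 126, 69.2 and 90.5 CPM in WT gWAT libraries 1, 3 and 4. The lowest KO library lay well above the highest WT library, which was again number 1. The log2 fold change was 1.15 ± 0.19 (edgeR adjusted p = 0.0258).

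Timp3, on chromosome 10 at 86300372 to 86349506 (plus strand), encodes the inhibitor that stays bound to the matrix and also blocks ADAM17 and ADAMTS enzymes. It stood at 430, 348 and 430 CPM in KO gWAT libraries 1, 3 and 4, against 310, 303 and 271 CPM in WT gWAT libraries 1, 3 and 4. The groups did not overlap, with a log2 fold change of 0.45 ± 0.13, yet the edgeR adjusted p was 0.0819.

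Timp2, on chromosome 11 at 118301069 to 118355740 (minus strand), encodes the inhibitor that also takes part, with the membrane protease MMP14, in activating pro-MMP2. It stood at 485, 624 and 634 CPM in KO gWAT libraries 1, 3 and 4, against 507, 594 and 528 CPM in WT gWAT libraries 1, 3 and 4. The ranges overlapped, and the log2 fold change was 0.10 ± 0.15 (edgeR adjusted p = 0.748).

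Mmp3, on chromosome 9 at 7445822 to 7455975 (plus strand), encodes stromelysin-1, which cuts proteoglycans and several collagens and activates other pro-MMPs. Its level was 2.09, 2.39 and 2.60 CPM in KO gWAT libraries 1, 3 and 4, against 5.45, 8.67 and 8.24 CPM in WT gWAT libraries 1, 3 and 4. The KO libraries were close together and below every WT library. The log2 fold change was −1.66 ± 0.24 (edgeR adjusted p = 0.0221), and it rested on 39 to 50 reads per KO library and 95 to 174 reads per WT library.

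The promoters of Timp1, Mmp3 and Timp4 are shown because these are the 3 genes that passed in gWAT. Each runs from 250 bases before to 50 bases after the gene's start in RefSeq on GRCm38.p6, 5′ to 3′ on the gene's strand. Capitals mark the AP-1 consensus TGANTCA, its variant TGAGTAA and the TATA box TATAAA, searched on both strands.
Timp1 (chrX:20869916-20870215, plus strand): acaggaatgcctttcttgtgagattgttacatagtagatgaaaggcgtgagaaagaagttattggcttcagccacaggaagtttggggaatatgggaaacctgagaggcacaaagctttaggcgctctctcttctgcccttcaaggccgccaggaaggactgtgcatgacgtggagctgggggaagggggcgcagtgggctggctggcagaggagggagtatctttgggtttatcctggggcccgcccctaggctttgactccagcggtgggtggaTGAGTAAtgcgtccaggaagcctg
Mmp3 (chr9:7445572-7445871, plus strand): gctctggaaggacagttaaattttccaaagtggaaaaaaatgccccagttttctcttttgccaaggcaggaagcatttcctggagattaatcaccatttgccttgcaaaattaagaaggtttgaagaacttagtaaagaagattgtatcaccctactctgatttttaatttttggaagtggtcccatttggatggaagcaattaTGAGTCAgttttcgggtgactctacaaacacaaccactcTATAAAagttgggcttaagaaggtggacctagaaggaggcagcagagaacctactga
Timp4 (chr6:115252156-115252455, minus strand): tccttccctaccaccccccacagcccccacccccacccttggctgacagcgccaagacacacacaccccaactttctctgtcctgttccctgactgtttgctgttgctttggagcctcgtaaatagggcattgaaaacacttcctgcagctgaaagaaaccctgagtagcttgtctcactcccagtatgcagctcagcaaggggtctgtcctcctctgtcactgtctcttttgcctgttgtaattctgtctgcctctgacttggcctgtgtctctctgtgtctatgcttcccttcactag
In the Mmp3 promoter TGAGTCA stands at −46 to −40 from the RefSeq start and TATAAA at −7 to −2. In the Timp1 promoter TGAGTAA stands at 27 to 33 bases after the start. None of the 3 motifs is in the Timp4 window. TGANTCA is in 7.81%, TGAGTAA in 2.68% and TATAAA in 13.6% of the 32851 mouse promoters in the same RefSeq table. The table holds 7 of the 10 genes, and of the 4 others Adamts1 has TATAAA at −32 to −27. The letters AGGAAG, a core of Ets-factor sites, are in the windows of Timp1 (at 3 places), Timp3, Timp4, Mmp3 and Mmp14, and in 35.4% of all promoters. These matches are a description of the letters in each window.

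The other 3 MMP genes had lower mean levels in KO gWAT, without passing the adjusted threshold. Mmp19, on chromosome 10 at 128790910 to 128800824 (plus strand), encodes a secreted protease that cuts basement membrane proteins. It stood at 83.7, 68.8 and 86.0 CPM in KO gWAT libraries 1, 3 and 4, against 103, 187 and 144 CPM in WT gWAT libraries 1, 3 and 4. The groups did not overlap, the log2 fold change was −0.87 ± 0.22 and the edgeR adjusted p was 0.0565.

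Mmp2, on chromosome 8 at 92827291 to 92853420 (plus strand), encodes gelatinase A, which cuts denatured collagen and basement membrane collagen. It stood at 47.1, 51.2 and 64.0 CPM in KO gWAT libraries 1, 3 and 4, against 60.8, 119 and 90.5 CPM in WT gWAT libraries 1, 3 and 4. KO library 4 was above WT library 1, so the groups overlapped, and the log2 fold change was −0.74 ± 0.24 (edgeR adjusted p = 0.113). Mmp14, on chromosome 14 at 54431612 to 54445364 (plus strand), encodes the membrane-anchored protease that activates pro-MMP2. It stood at 41.3, 46.5 and 51.3 CPM in KO gWAT libraries 1, 3 and 4, against 47.4, 94.4 and 70.4 CPM in WT gWAT libraries 1, 3 and 4. Its log2 fold change was −0.62 ± 0.24 (edgeR adjusted p = 0.165), and here too WT library 1 lay within the KO range.

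The ADAMTS pair, which lie 53 kb apart on chromosome 16, gave no difference beyond the spread of the libraries. Adamts1 (85793827 to 85803113, minus strand) stood at 37.2, 66.8 and 48.5 CPM in KO gWAT libraries 1, 3 and 4, against 33.4, 43.5 and 60.5 CPM in WT gWAT libraries 1, 3 and 4. Adamts5 (85856173 to 85901828, minus strand) stood at 313, 633 and 501 CPM in KO gWAT libraries 1, 3 and 4, against 523, 296 and 398 CPM in WT gWAT libraries 1, 3 and 4. KO and WT values were interleaved for both genes. The log2 fold change was 0.15 ± 0.26 for Adamts1 (edgeR adjusted p = 0.782) and 0.26 ± 0.28 for Adamts5 (edgeR adjusted p = 0.624).

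The 3 calls in gWAT depended on single libraries. Without WT library 1 they were 7 of 10 (Timp1, Timp3, Timp4, Mmp2, Mmp3, Mmp14 and Mmp19). Without WT library 3 they were 2 (Timp4 and Mmp3), and without WT library 4 or KO library 1, 3 or 4 they were 0. Calls over all genes tested moved the same way, from 834 with every library to 2908 without WT library 1 and 0 without WT library 4. The edgeR adjusted p of Timp1 was then 0.0715 without WT library 3, 0.139 without WT library 4, 0.128 without KO library 1, 0.0837 without KO library 3 and 0.121 without KO library 4. That of Timp4 was 0.124, 0.107, 0.0957 and 0.0985 and that of Mmp3 was 0.121, 0.0968, 0.0873 and 0.0929 without WT library 4 and KO libraries 1, 3 and 4 in turn. The direction of all 3 genes held in each of these fits, with log2 fold changes of −2.07 to −1.51 for Timp1, 0.97 to 1.38 for Timp4 and −1.85 to −1.53 for Mmp3, and the unadjusted p was at most 0.00628. Timp1 also missed the threshold in limma-voom (adjusted p = 0.0506) and in 1 edgeR fit of all 14 libraries (adjusted p = 0.0507). Mmp19 and Mmp2 passed as lower with DESeq2 (adjusted p = 0.00200 and 0.0283), with no filter beyond 1 count in edgeR (0.00575 and 0.0283) and in that fit of all 14 libraries (0.0158 and 0.0285), and Timp3 passed as higher with DESeq2 (0.0148).

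**Figure D2:**
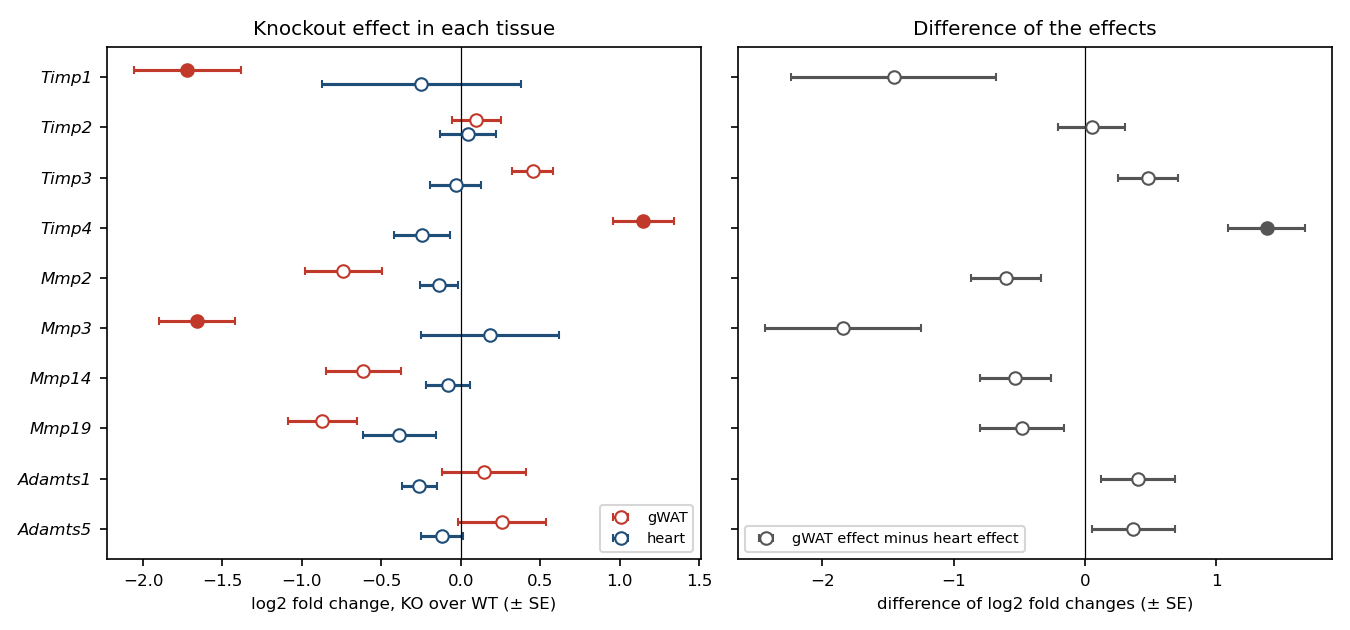
Log2 fold change of KO over WT for each gene in gWAT and in heart (left), and the gWAT effect minus the heart effect (right), with bars for the SE; filled points have an adjusted p under 0.05 in the edgeR test and open points do not. In gWAT Timp1 and Mmp3 are at −1.72 and −1.66 and Timp4 is at 1.15, while in heart the 10 genes lie between −0.39 and 0.18.

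Relative to each other and per kb of exon, Timp2 was the most abundant of the 10 genes in gWAT of both genotypes, at 149 ± 21.4 CPM per kb in KO and 139 ± 11.6 CPM per kb in WT libraries (SD, n = 3 each). Mmp3 was the least abundant, at 1.31 ± 0.142 CPM per kb in KO and 4.14 ± 0.973 CPM per kb in WT libraries. In KO gWAT Timp3, Adamts5 and Timp4 came next after Timp2, at 49.4, 44.7 and 35.6 CPM per kb, and the library ranges of Timp3 with Adamts5 and of Adamts5 with Timp4 overlapped. In WT gWAT Mmp19, Adamts5 and Timp3 came next after Timp2, at 41.0, 37.6 and 36.2 CPM per kb, with overlapping library ranges.

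Within the summed level of the 4 TIMP genes per kb, Timp1 made up 2.02 ± 0.695% in KO gWAT and 7.60 ± 2.35% in WT gWAT. The share of Timp4 was 14.95 ± 1.66% in KO gWAT and 7.87 ± 2.71% in WT gWAT. Timp2 held 62.2 ± 4.11% in KO gWAT and 67.1 ± 1.76% in WT gWAT. The library ranges of the Timp1 and Timp4 shares did not overlap between genotypes, and neither did those of the Timp2 share. Levels did not overlap in gWAT for 27.6% of all genes tested. A share also depends on the other genes of the sum, and the Timp2 level itself overlapped between genotypes (log2 fold change 0.10, edgeR adjusted p = 0.748). The 4 TIMP genes together reached 239 ± 19.4 CPM per kb in KO gWAT and 207.5 ± 12.1 CPM per kb in WT gWAT, and the 4 MMP genes together reached 47.7 ± 5.06 CPM per kb in KO gWAT and 83.8 ± 25.3 CPM per kb in WT gWAT (SD, n = 3 each, no test). Of the MMP sum, Mmp19 held 47.3 ± 3.95% in KO gWAT and 49.2 ± 0.903% in WT gWAT.

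**Figure D3:**
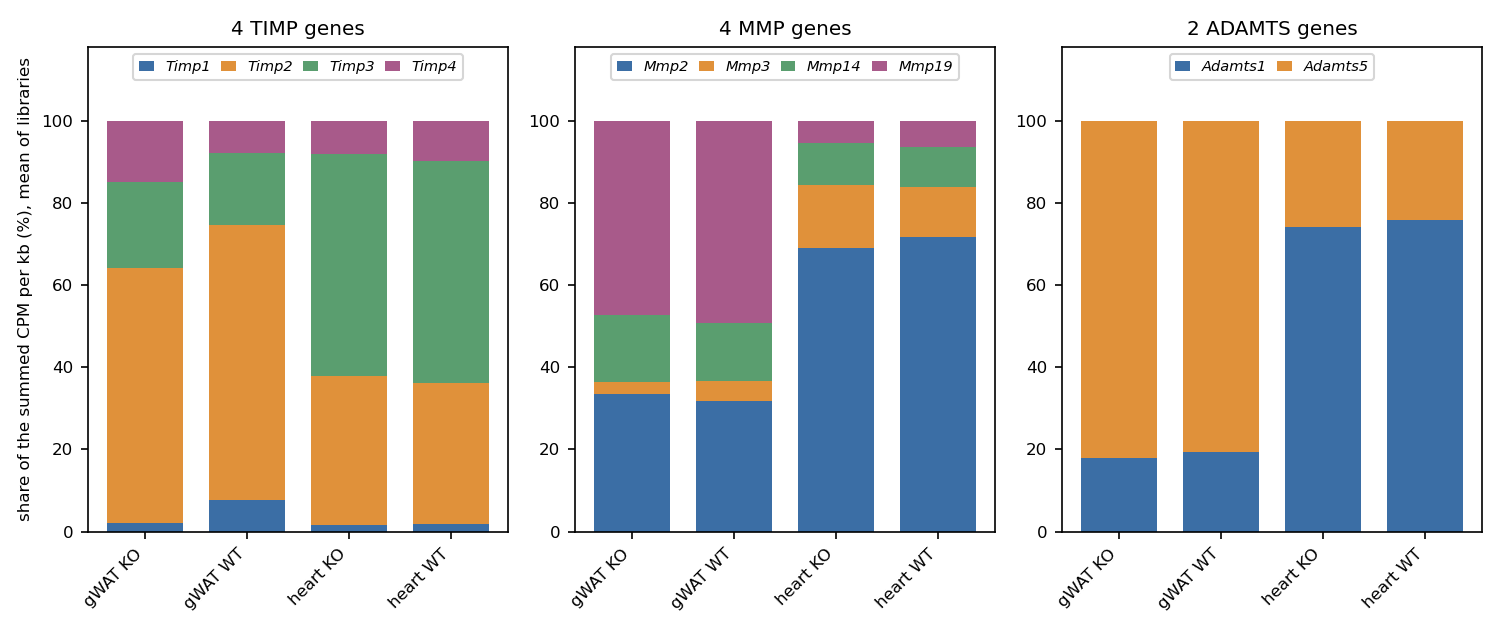
Share of each gene (y axis, percent, mean of libraries) in the summed CPM per kb of the 4 TIMP, 4 MMP and 2 ADAMTS genes, stacked for each of the 4 groups. Timp1 shrinks to 2.02% in gWAT KO against 7.60% in gWAT WT, and Timp3 holds about 54% of the TIMP sum in hearts of both genotypes.

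Other genes of matrix proteolysis were read from lists of the same pathway. Of 9 other MMP genes tested in gWAT, Mmp9 rose and Mmp13 and Mmp12 fell, where 2.01% of all genes tested rose and 3.48% fell. Mmp9, the gelatinase B of leukocytes, averaged 3.4 ± 0.214 CPM in KO and 1.5 ± 0.307 CPM in WT libraries (log2 fold change 1.18 ± 0.24, edgeR adjusted p = 0.0334). Mmp12, the macrophage elastase, averaged 78.6 ± 5.37 CPM in KO and 458 ± 317 CPM in WT libraries (log2 fold change −2.56, edgeR adjusted p = 0.0370). Mmp13, a collagenase, averaged 0.334 ± 0.139 CPM in KO and 1.90 ± 0.963 CPM in WT libraries (log2 fold change −2.51, edgeR adjusted p = 0.0358). Mmp13, Mmp12 and Mmp3 lie within 183 kb on chromosome 9. The cluster there holds 8 of the MMP genes read here, of which 4 were tested in gWAT. The 4th, Mmp27, had a log2 fold change of −0.48 (edgeR adjusted p = 0.489). Mmp12 shares 157 bp of exon with Mmp1b, which is not among those 8, and the counting rule for shared bases is not known.

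Of 19 other ADAMTS and ADAMTS-like genes tested in gWAT 1 passed, a share near the 5.49% of all genes tested, so the count says nothing about the list. It was Adamtsl4, which binds fibrillin microfibrils and rose to 33.1 ± 1.60 CPM in KO against 19.5 ± 4.30 CPM in WT libraries (log2 fold change 0.77, edgeR adjusted p = 0.0306). The next by p did not pass, with log2 fold changes of 0.93 for Adamtsl1 (edgeR adjusted p = 0.0706) and −0.71 for Adamts15 (edgeR adjusted p = 0.0869). Of 10 membrane ADAM genes 2 passed, both lower, where 3.48% of all genes tested fell. Adam8, a leukocyte protease, fell to 26.1 ± 4.24 CPM in KO against 192 ± 107 CPM in WT libraries (log2 fold change −2.89, edgeR adjusted p = 0.0236). Adam12 fell to 31.8 ± 9.81 CPM in KO against 61.6 ± 5.85 CPM in WT libraries (log2 fold change −0.96, edgeR adjusted p = 0.0401). Adam17, the TNF-releasing enzyme that Timp3 blocks, had a log2 fold change of −0.66 (edgeR adjusted p = 0.0549) and shares 311 bp of exon with Iah1.

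Of 18 other regulators of matrix proteolysis 2 passed, 1 in each direction, where 5.49% of all genes tested passed. Reck, a membrane-anchored MMP inhibitor, rose to 14.9 ± 1.20 CPM in KO against 9.26 ± 0.950 CPM in WT libraries (log2 fold change 0.69, edgeR adjusted p = 0.0291). Ctsk, the cathepsin that digests bone collagen in osteoclasts, fell to 32.5 ± 3.44 CPM in KO against 143 ± 80.2 CPM in WT libraries (log2 fold change −2.15, edgeR adjusted p = 0.0342). Tll1, a procollagen-processing protease, had a log2 fold change of 0.93 (edgeR adjusted p = 0.0512). Of 26 matrix substrates 1 passed, a smaller share than the 5.49% of all genes tested. It was Spp1 (osteopontin, which macrophages also secrete), which fell to 3.20 ± 0.693 CPM in KO against 43.1 ± 22.6 CPM in WT libraries (log2 fold change −3.76, edgeR adjusted p = 0.0185). Bgn and Col1a1 had log2 fold changes of −0.69 and −1.03 (edgeR adjusted p = 0.0511 and 0.0518).

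The median log2 fold change in gWAT was −0.05 over the other MMP genes, −0.07 over the other ADAMTS genes, −0.33 over the ADAM genes, −0.22 over the regulators and −0.13 over the substrates. It was −0.26 over the 10 genes described here and 0.00 over all genes tested. Over all genes tested in gWAT, 834 passed, against 2908 without WT library 1, 132 without WT library 3 and 0 without WT library 4 or KO library 1, 3 or 4, so no call on these lists held in the last 4 of these fits.

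**Figure D4:**
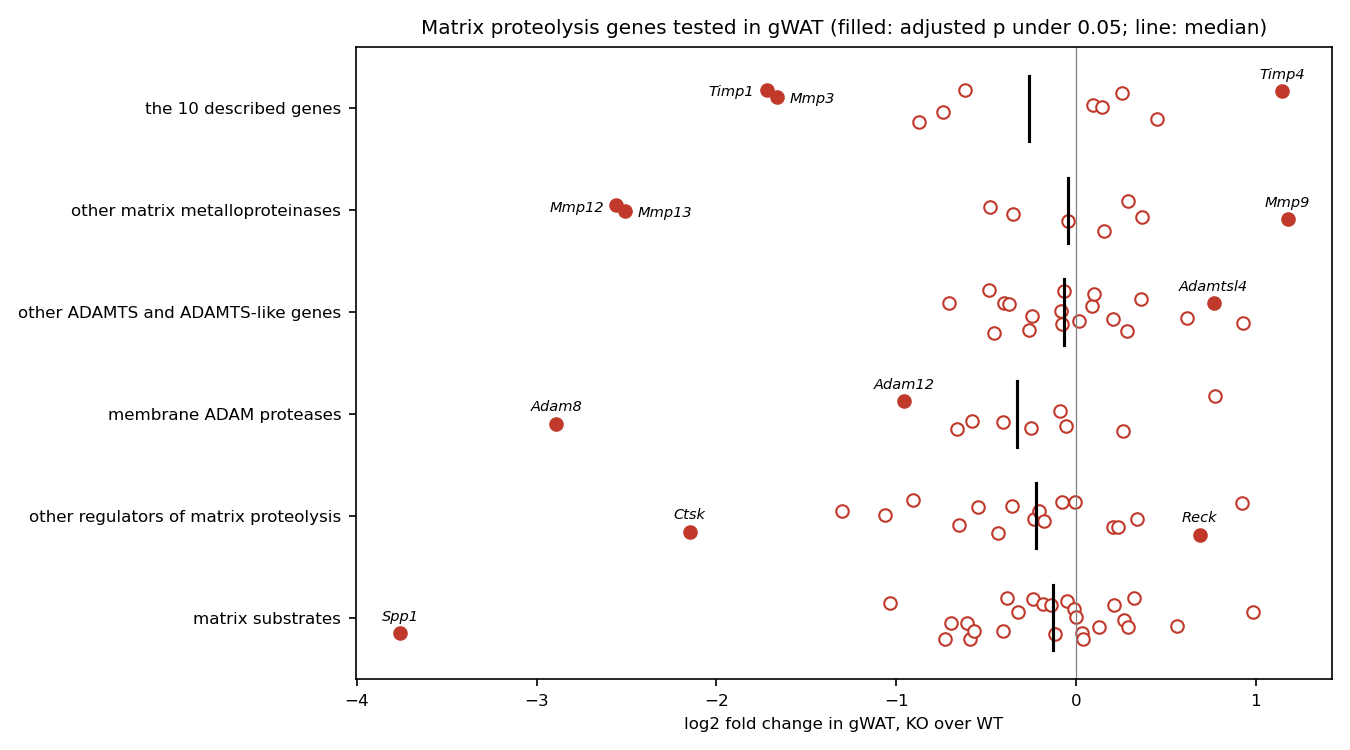
Log2 fold change of KO over WT in gWAT (x axis) for each tested gene of 6 groups (down the page), with filled points for an adjusted p under 0.05 in the edgeR test and a line for each group's median. The medians lie between −0.33 and −0.05, and 12 genes are filled, of which 4 lie right of 0 (Timp4, Mmp9, Adamtsl4 and Reck).

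Markers of several cell types moved in gWAT alongside these genes. Of 14 macrophage markers tested, 5 fell and 1 rose, where 3.48% of all genes tested fell and 2.01% rose, with a median log2 fold change of −0.70 and a summed level of 1401 to 1557 CPM in KO and 1703 to 3351 CPM in WT libraries. Fcgr1, an antibody receptor, and Ctss, a lysosomal protease, were among those that fell (log2 fold changes −1.96 and −1.44). The log2 fold change was negative for 12 of the 14 and positive for 2. Cd163 averaged 129 ± 22.9 CPM in KO and 68.1 ± 25.5 CPM in WT libraries. Lyve1 averaged 62.7 ± 7.46 CPM in KO and 37.0 ± 9.60 CPM in WT libraries, so the list did not move as one. Of 13 markers of lipid-associated and inflammatory macrophages, 9 fell (again against 3.48% of all genes), with a median of −1.95, and their sum was 14368 to 15921 CPM in KO and 18478 to 20466 CPM in WT libraries, a sum that includes Lpl and Cd36, which adipocytes also express. Mmp12 and Spp1 are on that list too.

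Of 13 white adipocyte markers 4 rose, where 2.01% of all genes tested did, with a median of 0.61 and a sum of 30187 to 33816 CPM in KO and 20198 to 31498 CPM in WT libraries. Cfd, the serine protease adipsin, was among them (log2 fold change 2.23). The log2 fold change was positive for 12 of the 13 and negative for 1, Lep. Lep averaged 3042 ± 653 CPM in KO and 4181 ± 1251 CPM in WT libraries. Of 10 mesothelial markers 3 rose (against the same 2.01%), with a median of 1.14 and a sum of 346 to 579 CPM in KO and 119 to 267 CPM in WT libraries. Of 14 fibroblast and adipose progenitor markers 0 passed in the edgeR test, with 9 at an unadjusted p under 0.05, where 23.1% of all genes were. Their median was −0.04, with 6 positive and 8 negative log2 fold changes from −1.03 to 0.86, so this list did not move as one. None of the macrophage, adipocyte, mesothelial or fibroblast markers was at 0 in either genotype. WT library 1 had the lowest macrophage sum and the highest adipocyte sum of the WT libraries. The part of these markers in the levels of Timp1, Timp4 and Mmp3 was not tested. In bulk tissue, fewer cells of a type and less RNA per cell cannot be told apart.

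The profile of Timp1 over the 6 gWAT libraries was nearest to that of Msr1, a macrophage scavenger receptor, at a root mean square distance of 0.119 on log2(CPM + 2), each gene centred on its own mean. Arhgap19 (0.131), Tk1 (0.15), Pak1 (0.160) and Pcp4l1 (0.173) came next among the 15200 genes, and the median distance was 0.769. The distance takes in KO and WT libraries together, so genes near Timp1 tend to share its difference between genotypes. All 5 fell in KO gWAT too, which is therefore no separate result. Of the other 9 genes described here, Mmp3, which also fell, was the nearest at 0.265, followed by Mmp19 at 0.405. Timp4, which rose, was the farthest at 1.36.

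Several of the 10 genes lie within or across another gene, and whether the counting used strand is not known. Timp1 lies in Syn1, Timp4 in Syn2 and Timp3 in Syn3, each on the opposite strand, an arrangement known for these TIMP and synapsin genes. Timp1 shares no exon bases with Syn1, while Timp4 shares 90 bp with Syn2, Timp3 shares 1733 bp with Syn3 and Mmp19 shares 1001 bp with Tmem198b and Gm47093, so reads in shared bases may have been lost or assigned to either gene. The host genes were at low levels in gWAT, with Syn1 at 1.33 ± 0.244 CPM in KO and 3.18 ± 1.33 CPM in WT libraries (log2 fold change −1.26, edgeR adjusted p = 0.0728). Syn2 was at 7.60 ± 0.215 CPM in KO and 5.79 ± 1.18 CPM in WT libraries (0.40, edgeR adjusted p = 0.206), and Syn3 at 1.84 ± 0.408 CPM in KO and 1.004 ± 0.0817 CPM in WT libraries (0.87, edgeR adjusted p = 0.105). The sign of each host gene's value was that of the TIMP gene inside it.

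In heart, 0 of the 10 genes passed the adjusted threshold in the edgeR test, where 0.00706% of the 14159 genes tested did, which is Fhl2 alone. At an unadjusted p under 0.05 there was 1 of 10, Adamts1, against 3.20% of all genes tested, and DESeq2 and limma-voom also called 0 of 10. KO and WT libraries overlapped for all 10 genes, where 2.38% of all genes tested had groups that did not overlap. Adamts1 stood at 58.3, 68.7, 79.3 and 79.3 CPM in KO hearts 1 to 4, against 87.9, 89.0, 91.4 and 73.2 CPM in WT hearts 1 to 4. Its log2 fold change was −0.26 ± 0.11, with an edgeR adjusted p of 0.9997 and KO hearts 3 and 4 above WT heart 4.

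Timp4 stood at 110, 69.9, 54.7 and 69.2 CPM in KO hearts 1 to 4, against 93.6, 81.2, 94.2 and 91.5 CPM in WT hearts 1 to 4. KO heart 1 was the highest of all 8 and the other 3 KO hearts were below every WT heart, with a log2 fold change of −0.25 ± 0.18. It was −0.49 without KO heart 1 (edgeR adjusted p = 0.9997) and −0.11 without KO heart 3, the ends of the range over the 8 fits that leave out 1 heart. Timp1 stood at 3.10, 4.12, 1.58 and 1.09 CPM in KO hearts 1 to 4, against 4.74, 5.27, 0.711 and 0.793 CPM in WT hearts 1 to 4. Mmp3 stood at 9.04, 10.5, 8.17 and 3.56 CPM in KO hearts 1 to 4, against 9.04, 11.5, 2.44 and 4.26 CPM in WT hearts 1 to 4. For Timp1 and Mmp3 the spread within each genotype was far larger than the difference between genotypes, which was −0.25 ± 0.63 for Timp1 and 0.18 ± 0.43 for Mmp3 on the log2 scale. The 6 other genes had heart log2 fold changes of −0.39 (Mmp19) to 0.04 (Timp2), with SEs of 0.12 to 0.23.

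The spread within genotype followed the library number. Hearts 1 and 2 of both genotypes were above hearts 3 and 4 for Timp1, Timp2, Timp3 and Mmp3. They were below hearts 3 and 4 for Adamts5, and the sets overlapped for the 5 other genes. The share of all genes with sets apart was not computed, so the separation cannot be called particular to these genes. The same libraries differed in atrial markers, whose mean log2(CPM + 2) over 8 genes was 8.29, 8.33, 6.05 and 6.46 in KO hearts 1 to 4 and 8.03, 7.23, 3.54 and 4.43 in WT hearts 1 to 4. Mesothelial markers summed to 283, 366, 73.1 and 146 CPM in KO hearts 1 to 4 and to 371, 457, 69.1 and 60.5 CPM in WT hearts 1 to 4. The part of these markers in the levels was not tested, and the library numbers are no groups of the study.

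With the atrial level as a covariate, the heart log2 fold change of Timp1 was −0.90 ± 0.28 (edgeR adjusted p = 0.329) and that of Mmp3 was −0.24 ± 0.27 (edgeR adjusted p = 0.884). Within hearts 1 and 2 it was −0.47 for Timp1, and within hearts 3 and 4 it was 0.82. No call on these genes was made in any of these fits. The profile of Timp1 over the 8 hearts was nearest to that of Prss23, a secreted serine protease, at a distance of 0.0663, then Flrt1, Ptgis, Wnt4 and Foxc2 at 0.0981 to 0.131, and the median distance was 0.571.

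**Figure D5:**
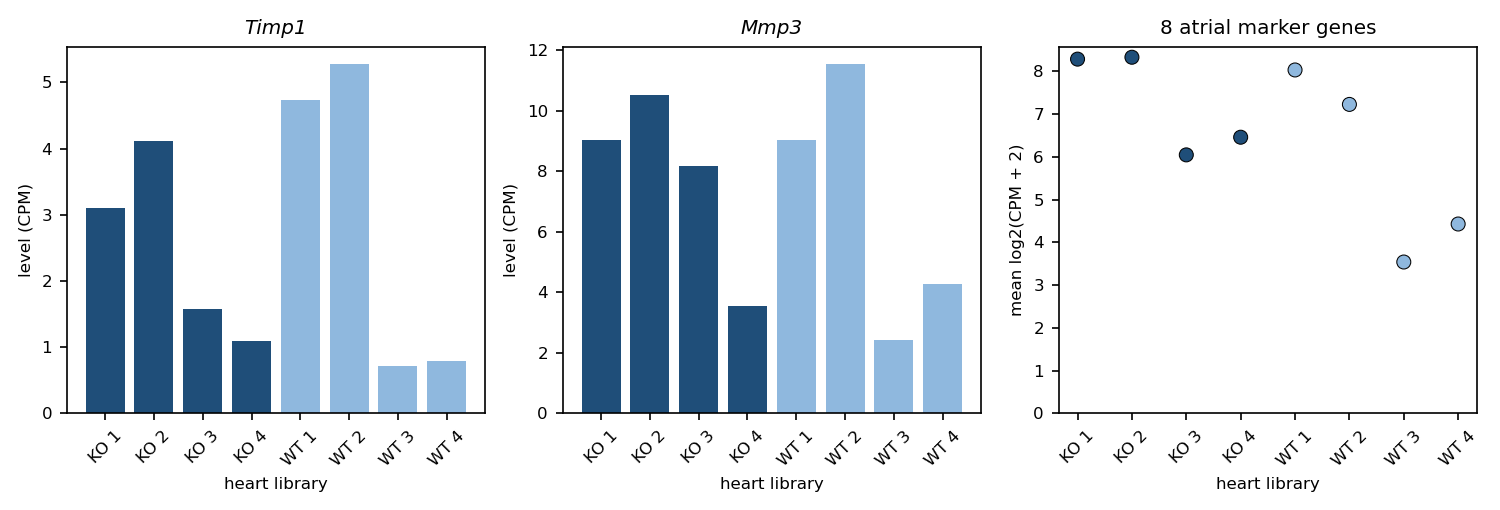
Level of Timp1 and of Mmp3 in CPM (bars, linear axis from 0) and mean log2(CPM + 2) of 8 atrial marker genes (points) in each heart library, KO 1 to 4 and then WT 1 to 4. Libraries 1 and 2 are above libraries 3 and 4 in both genotypes in all panels, with Timp1 at 3.10 to 5.27 CPM in libraries 1 and 2 and 0.711 to 1.58 CPM in libraries 3 and 4.

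Whether the knockout effect differed between tissues was tested as an interaction in 1 edgeR fit of all 14 libraries. Timp4 was the 1 gene of the 10 that passed, against 1.15% of the 16014 genes tested. Its gWAT effect minus its heart effect was 1.39 ± 0.29 on the log2 scale (edgeR adjusted p = 0.0354). Levels were higher in all 3 KO gWAT libraries than in any WT gWAT library. In heart, 3 of 4 KO libraries were below every WT heart and KO heart 1 was above every WT heart. The heart difference alone, −0.25 ± 0.18, did not pass. The difference of effects was −1.84 ± 0.59 for Mmp3 (edgeR adjusted p = 0.138) and −1.46 ± 0.78 for Timp1 (edgeR adjusted p = 0.402), neither of which passed. For the 7 others it lay between −0.60 (Mmp2) and 0.48 (Timp3). The Timp4 call was lost without any 1 of 12 libraries and held without gWAT WT 1 (adjusted p = 0.00180) or heart KO 1 (adjusted p = 0.0222). Without gWAT KO 1, 3 or 4 its adjusted p was 0.0766, 0.0861 and 0.0754, and without gWAT WT 3 or 4 it was 0.0820 and 0.1105. Without heart KO 2, 3 or 4 it was 0.0746, 0.0653 and 0.0625, and without heart WT 1 to 4 it was 0.0692, 0.0638, 0.0612 and 0.0646. The difference stayed between 1.20 and 1.64 in these 14 fits, with an unadjusted p of at most 0.00101. Without gWAT WT 1, Mmp2 (−0.81, edgeR adjusted p = 0.0311) and Mmp14 (−0.74, edgeR adjusted p = 0.0456) passed too.

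Without the knockout, 7 of the 10 genes differed between WT gWAT and WT heart, where 69.4% of the 15287 genes tested did, 36.1% higher in gWAT and 33.3% lower. Mmp19, Adamts5, Timp1, Mmp14 and Timp2 were higher in gWAT, and Timp3 and Adamts1 were lower in gWAT. Mmp19 averaged 145 ± 42.0 CPM in WT gWAT (SD, n = 3) and 6.90 ± 2.25 CPM in WT heart (SD, n = 4), a log2 fold change of 4.38 ± 0.27 (edgeR adjusted p = 9.32e-07). The log2 fold change of gWAT over heart was 2.88 ± 0.21 for Adamts5, 2.26 ± 0.57 for Timp1, 1.99 ± 0.23 for Mmp14 and 1.30 ± 0.18 for Timp2. It was −1.29 ± 0.17 for Timp3 and −0.90 ± 0.19 for Adamts1.

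Timp4, Mmp2 and Mmp3 did not pass between the tissues, with log2 fold changes of 0.07 ± 0.18, 0.32 ± 0.19 and 0.12 ± 0.44. Mmp2 passed without gWAT WT library 1 (0.53, edgeR adjusted p = 0.00326), while without gWAT WT library 3 it was at 0.07 (edgeR adjusted p = 0.705). Library totals without scaling factors moved the median of all genes by 0.58 on the log2 scale in this contrast. Under that scaling Timp4 (0.64) and Mmp2 (0.92) passed as higher in gWAT and Adamts1 (−0.31) did not pass, and relative to the shift of the median these 3 values were 0.06, 0.34 and −0.89.

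In order of level per kb, the WT heart was led by Timp3 at 88.3 ± 18.5 CPM per kb and Timp2 at 56.4 ± 13.3 CPM per kb (SD, n = 4), whose library ranges overlapped, followed by Mmp2 at 21.4 ± 1.44 CPM per kb. Mmp19 had the lowest mean there at 1.95 ± 0.636 CPM per kb, but its library range overlapped those of Mmp14, Timp1 and Mmp3. Timp3 held 54.0 ± 2.24% of the TIMP sum in KO hearts and 54.1 ± 2.48% in WT hearts, against 20.8 ± 3.57% in KO gWAT and 17.5 ± 1.44% in WT gWAT. Mmp2 held 69.0 ± 6.45% of the MMP sum in KO hearts and 71.7 ± 8.48% in WT hearts. Of the sum of the ADAMTS pair, Adamts5 held 82.1 ± 1.53% in KO gWAT and 80.6 ± 6.84% in WT gWAT, while Adamts1 held 74.1 ± 1.49% in KO hearts and 76.0 ± 4.50% in WT hearts.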

How the data were processed

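mRNA was sequenced from gWAT and heart, and the values are the authors' deposited read counts per gene ID, raw whole numbers for each library. Tools named in the submitters' processing notes are HISAT2 2.1.0 (an aligner), HTSeq 0.11.0 (a read counter), Trimmomatic 0.32, Picard, FastQC and limma, with mm10 as the build, and no order of use. The annotation release, strand setting and filters are not given there. Of the 33459 IDs, 33406 carry a symbol. No 2 libraries of a group were duplicates, since the smallest chi-square over its degrees of freedom among 18 pairs was 3.74.

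Low genes were removed with filterByExpr, libraries were scaled by TMM and edgeR's quasi-likelihood F test was applied (edgeR 4.0.16, R 4.3.3), with Benjamini-Hochberg adjustment over all genes tested and a threshold of 0.05. SE is the log2 fold change divided by the square root of F. The gWAT, heart and WT tissue comparisons were fitted on their own groups, and the interaction on all 14 libraries. The pipeline was tested on simulated data. Gene models are GENCODE release M21. Python 3.11.15, pandas 2.3.3 and matplotlib 3.10.9 were used for summaries and figures.

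The 10 genes and all lists were chosen with earlier results of these data known. Each of the 10 genes is given in full. Of each other pathway list, up to 8 genes past the threshold are named, filled to 3 by smallest p where fewer passed. For marker lists, counts and summed levels are given, with some of the 3 markers of smallest p. Cd163 and Lyve1 are named as the macrophage markers with higher mean levels in KO gWAT, and Lep as the adipocyte marker with a lower one. The 5 genes nearest to Timp1 in profile are named.

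Alternatives were RLE scaling, library totals, no filter beyond 1 count, DESeq2 1.42.0, limma-voom (limma 3.58.1), the replicate number as a block, 1 fit of all libraries, leaving out each library, and, in heart, an atrial covariate, the number set as a covariate and fits within numbers 1 and 2 and within 3 and 4. Whether equal numbers pair KO and WT libraries was checked from the correlation of their deviations from group means. In heart the correlations were 0.27, 0.40, 0.41 and 0.32 for numbers 1 to 4, all over 0.1, yet the main heart fit used no pairing. Unequal numbers were as alike within sets, at 0.18 and 0.51 between numbers 1 and 2 and at 0.30 and 0.36 between 3 and 4, and ran from −0.49 to −0.19 across the sets, so these values separate the sets 1 and 2 from 3 and 4 and do not single out pairs. The labels do not say what a number marks. In gWAT they were −0.11, −0.23 and 0.06 for numbers 1, 3 and 4, so the numbers were not taken to pair samples.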

Additional observations from a re-analysis of the deposited data

Results flagged for a closer look

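Timp4 is listed for a closer look because the knockout effect differed between the tissues in a test of that difference. The gWAT effect minus the heart effect was 1.39 ± 0.29 on the log2 scale (edgeR interaction, adjusted p = 0.0354). Timp4 averaged 210 ± 15.5 CPM in KO gWAT and 95.1 ± 28.5 CPM in WT gWAT (SD, n = 3 each), and 76.0 ± 24.0 CPM in KO hearts and 90.1 ± 6.06 CPM in WT hearts (SD, n = 4 each). No library of any of the 10 genes stood apart from the rest of its heart group by Dixon's criterion at the 95% level, and groups of 3 were not tested. The nearest to it were WT heart 4 for Adamts1 and WT heart 2 for Timp4, whose gaps to the next library were 0.81 and 0.79 of the group's range.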

How the results depend on the processing

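In gWAT, the number of genes called, 834, was 1600 with no filter beyond 1 count, 1662 with DESeq2, 477 with limma-voom, 1725 in 1 fit of all 14 libraries and 0 to 2908 when 1 library was left out. Of the 10 genes, 5 passed with no filter, 6 with DESeq2 and 0 to 7 with 1 library left out. With the replicate number as a block, 0 genes passed in gWAT and 0 of the 10, although the numbers were not taken to pair these samples. The edgeR adjusted p was then 0.0550 for Timp1 and Mmp3 and 0.0606 for Timp4. The block changed no call on the 10 genes in heart, in the interaction or between WT tissues. In heart, genes called numbered 3 with no filter and with DESeq2, 7 with the atrial covariate, 2 with the number set as covariate and 17 within hearts 3 and 4, and the 10 genes stayed uncalled. In the interaction, the count of 184 was 533 with no filter, 668 with DESeq2, 69 with limma-voom and 3 to 1315 with 1 library left out, and of the 10 genes 2 passed with no filter and with DESeq2 and 0 to 3 with 1 library left out. The cause of these changes was not tested.

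Heart log2 fold changes that turned in sign were those of Timp3 with library totals (0.0112), of Timp1 with limma-voom (0.0575) and, with the atrial covariate, of Timp2 (−0.18), Mmp3 (−0.24) and Adamts5 (0.0744). They also turned within hearts 1 and 2 for Timp2 (−0.0038), Timp4 (0.0507), Mmp3 (−0.0723) and Adamts5 (0.0385), and within hearts 3 and 4 for Timp1 (0.82), Timp3 (0.0665), Mmp2 (0.0361), Mmp14 (0.18) and Mmp19 (0.0710). With 1 library left out, signs turned in gWAT for Adamts1 (−0.10 to 0.40) and in heart for Timp1 (−0.60 to 0.21), Timp2 (−0.0548 to 0.18), Timp3 (−0.14 to 0.0749), Mmp3 (−0.0914 to 0.55) and Mmp14 (−0.16 to 0.0513). The interaction of Timp2 turned with library totals (−0.0408) and with 1 library left out (−0.0788 to 0.17). Between WT tissues, Timp4 turned under the block (−0.0132) and with 1 library left out (−0.18 to 0.26), as did Mmp3 (−0.14 to 0.49). None of these values passed the threshold.

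The heart values of Timp1 and Mmp3 rest on few reads, 7 to 59 of Timp1 and 24 to 129 of Mmp3 per library.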

Other observations

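Genes of AP-1 and cytokine signals, which act upstream of many MMP and TIMP promoters, were read as a further list. Of 11 tested in gWAT, 0 passed in the edgeR test, with 3 at an unadjusted p under 0.05, a share near the 23.1% of all genes tested, and a median log2 fold change of −0.21. The 3 with the smallest p are given as values. Tgfb1 averaged 41.5 ± 3.69 CPM in KO and 81.0 ± 26.6 CPM in WT libraries (log2 fold change −0.97, adjusted p = 0.0517), Fosl1 0.630 ± 0.134 CPM in KO and 1.59 ± 0.458 CPM in WT libraries (−1.33, adjusted p = 0.0612), and Fos 37.5 ± 9.62 CPM in KO and 68.2 ± 25.8 CPM in WT libraries (−0.87, adjusted p = 0.143). Fosl1 shares 1163 bp of exon with Ccdc85b.

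In heart, 0 genes of the pathway lists passed in the edgeR test, with an adjusted p of 0.9997 for each of the genes named here. The smallest unadjusted edgeR p among them was that of Serpinh1, the collagen chaperone, whose KO libraries lay below all WT libraries (log2 fold change −0.26 ± 0.07). Next came Fosl2 (−0.47 ± 0.16) and Adam17 (−0.23 ± 0.08). Among the other MMP genes the first by p was Mmp13 (0.65 ± 0.40), among the ADAMTS genes it was Adamts9 (−0.31 ± 0.16) and among the matrix substrates it was Lamc1 (−0.16 ± 0.08).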
